A study of Mus musculus with 45 samples.

Results

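The genes described here encode enzymes of cholesterol synthesis and 1 of its regulators. They are Hmgcs1, Idi1, Fdps, Fdft1, Sqle, Lss, Cyp51 and Insig1, and they were chosen by name. All 8 were found among the 15897 genes of the deposited table of hippocampal RNA sequencing. Cholesterol is made from acetyl-CoA through mevalonate, the isoprenoids, squalene and lanosterol. The brain makes nearly all of its own cholesterol, mainly in glia, because lipoproteins of the blood do not cross the blood-brain barrier. When sterols are scarce in the endoplasmic reticulum, the transcription factor SREBP-2 is released and the genes of the pathway are transcribed, and when sterols are plentiful, Insig proteins hold its escort Scap back.

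The hippocampi came from 45 female C57Bl/6J mice of 4 genotypes, each on 1 of 2 diets. AwTw mice were wild-type littermates, AwT+ mice carried human tau P301L under the CaMKII promoter of forebrain neurons, A+Tw mice carried APPswe and PS1dE9 under the mouse PrP promoter, and A+T+ mice, from a cross of the 2 heterozygous lines, carried all of these. The standard diet (STD) held 5% fat by weight and 0% cholesterol, and the typical Western diet (TWD) held 21% fat, 0.15% cholesterol and 35% sucrose. Mice ate them from 7 to 13 months of age. A+Tw/STD held 5 mice, A+T+/STD held 4 and each of the other 6 groups held 6. The labels placed 8 STD and 12 TWD mice in batch 0 and 13 STD and 12 TWD mice in batch 1, and A+Tw/STD had 1 mouse in batch 0. Values are variance-stabilized and log2-like, so a difference of 1 stands for about a doubling. The table does not hold the depth of each mouse (the study gives only a minimum), and precision was read from the spread between mice. All 13 neuron markers were measured, with mean values of at least 10.32. The summed level of the 12 choroid plexus markers ran from 9.75 to 18.11 on the log2 scale between mice. In bulk tissue, fewer cells of a type and less RNA per cell cannot be told apart.

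The stretch upstream of a gene's start is where SREBP-2 and its partners NF-Y and Sp1 bind in this pathway. RefSeq promoter windows (GRCm38.p6, 250 bases before to 50 after the start) were found for Hmgcs1, Idi1, Lss, Cyp51 and Insig1. The upstream bases of 3 of them are shown 5' to 3' on the gene's strand. These are Hmgcs1 and Insig1, which passed the diet test below as lower on TWD, and Lss, which did not pass. The Hmgcs1 and Insig1 calls did not hold in all fits given below. A link between motifs and the diet difference was not tested. Capitals mark a spelling of the sterol regulatory element (TCACNCCAC), the NF-Y motif CCAAT, the Sp1 motif GGGCGG and the E-box CACGTG. They were searched on both strands with any overlap allowed.
Hmgcs1, chr13:119690101-119690350, plus strand: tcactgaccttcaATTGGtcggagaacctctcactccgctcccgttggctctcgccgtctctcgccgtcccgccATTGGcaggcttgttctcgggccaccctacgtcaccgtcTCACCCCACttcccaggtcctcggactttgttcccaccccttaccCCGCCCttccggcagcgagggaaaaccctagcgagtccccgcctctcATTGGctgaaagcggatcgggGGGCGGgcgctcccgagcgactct
Insig1, chr5:28071162-28071362, plus strand: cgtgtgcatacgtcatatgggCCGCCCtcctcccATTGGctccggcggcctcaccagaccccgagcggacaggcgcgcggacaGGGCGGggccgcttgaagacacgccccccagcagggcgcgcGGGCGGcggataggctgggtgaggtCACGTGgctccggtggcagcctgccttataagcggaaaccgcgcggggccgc
Lss, chr10:76531355-76531587, plus strand: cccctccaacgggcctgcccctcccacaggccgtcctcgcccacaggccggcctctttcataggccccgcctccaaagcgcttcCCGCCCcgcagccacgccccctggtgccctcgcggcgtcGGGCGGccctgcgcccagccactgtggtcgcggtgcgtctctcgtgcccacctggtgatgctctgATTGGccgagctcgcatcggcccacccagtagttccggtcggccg
In the whole windows, TCACNCCAC was found in Hmgcs1 alone of the 5 (TCACCCCAC, from 137 bases before the start) and in 1.24% of 32851 promoter windows. No other spelling of the sterol regulatory element was searched, so a window without these letters may still hold one. CCAAT and GGGCGG were each found in all 5, against 37.4% and 35.7% of all windows. CACGTG was found in Insig1 alone of the 5, against 7.15% of all windows. Matches of letters are descriptions and not binding sites.

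The comparison of the 24 TWD mice with the 21 STD mice, with genotype and batch in the fit, asked whether the diet went with a change in the pathway. Of the 8 genes, 4 passed the test, against 29.4% of all 15897 genes (16.0% higher and 13.4% lower on TWD). Hmgcs1, Sqle and Insig1 were lower and Fdps was higher. Over the 8 genes the median log2 difference was -0.14, beside -0.0014 over all genes. Each p comes from a two-sided limma fit, was adjusted by the Benjamini-Hochberg method across the whole table and was read against 0.05. Each difference is TWD minus STD on the log2 scale with its SE.

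Hmgcs1 (ENSMUSG00000093930, GRCm38 chr13:119690379-119708260) makes HMG-CoA at the start of the mevalonate pathway. On STD its lowest, median and highest values were 10.91, 11.17 and 11.51, and on TWD they were 10.49, 11.10 and 11.55. The low tail was longer on TWD, while the top of the ranges was shared. The difference was -0.18 ± 0.07 (adjusted p = 0.0458), just inside the threshold, and the call was lost in 27 of 45 fits that left out 1 mouse each.

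Idi1 (ENSMUSG00000058258, chr13:8885501-8892451), the isomerase that makes dimethylallyl diphosphate, ran from 8.11 to 9.23 on STD with a median of 8.79. On TWD it ran from 7.31 to 9.17 with a median of 8.59. The lowest value belonged to a single A+T+/TWD mouse, replicate 1. The difference of -0.24 ± 0.12 did not pass (adjusted p = 0.109).

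Fdps (ENSMUSG00000059743, chr3:89093588-89101959) makes farnesyl diphosphate, from which both sterols and protein prenyl groups are built. Its lowest, median and highest values were 9.40, 9.74 and 10.70 on STD and 9.70, 10.06 and 10.52 on TWD. The floor of the range was higher on TWD, but the highest mouse of all was A+Tw/STD replicate 2. Fdps rose by 0.29 ± 0.08 (adjusted p = 0.0162), in the opposite direction to Hmgcs1, Sqle and Insig1.

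Fdft1 (ENSMUSG00000021273, chr14:63145150-63179578) makes squalene and is the first enzyme committed to sterols. It ran from 10.45 to 11.37 on STD and from 10.57 to 11.36 on TWD, with medians of 10.76 and 10.85. The difference of 0.08 ± 0.06 did not pass (adjusted p = 0.277).

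Sqle (ENSMUSG00000022351, chr15:59315077-59331192), the epoxidase that is a further control point of the pathway, had a lowest, median and highest value of 9.39, 9.63 and 9.98 on STD. On TWD these were 8.88, 9.45 and 10.09, so that the ranges overlapped and the TWD range was wider at both ends. The difference was -0.21 ± 0.07 (adjusted p = 0.023).

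Lss (ENSMUSG00000033105, chr10:76531588-76557138), which closes the rings to give lanosterol, ran from 8.38 to 9.48 on STD and from 8.11 to 9.42 on TWD, with a difference of -0.04 ± 0.10 (adjusted p = 0.768). Cyp51 (ENSMUSG00000001467, chr5:4081145-4104746), the lanosterol demethylase, ran from 9.14 to 9.68 and from 8.75 to 10.02, with a difference of -0.10 ± 0.07 (adjusted p = 0.251). Neither gene passed, and their 95% confidence intervals ran from -0.24 to 0.16 for Lss and from -0.23 to 0.04 for Cyp51.

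Insig1 (ENSMUSG00000045294, chr5:28071363-28078662), itself a target of SREBP-2 and the brake on it, had a lowest, median and highest value of 9.33, 9.52 and 10.05 on STD and 8.78, 9.43 and 9.83 on TWD. No STD mouse was below 9.33, while the TWD range reached well under it. The difference was -0.25 ± 0.09 (adjusted p = 0.0311), and the call was lost in 8 of 45 fits that left out 1 mouse each.

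**Figure D1:**
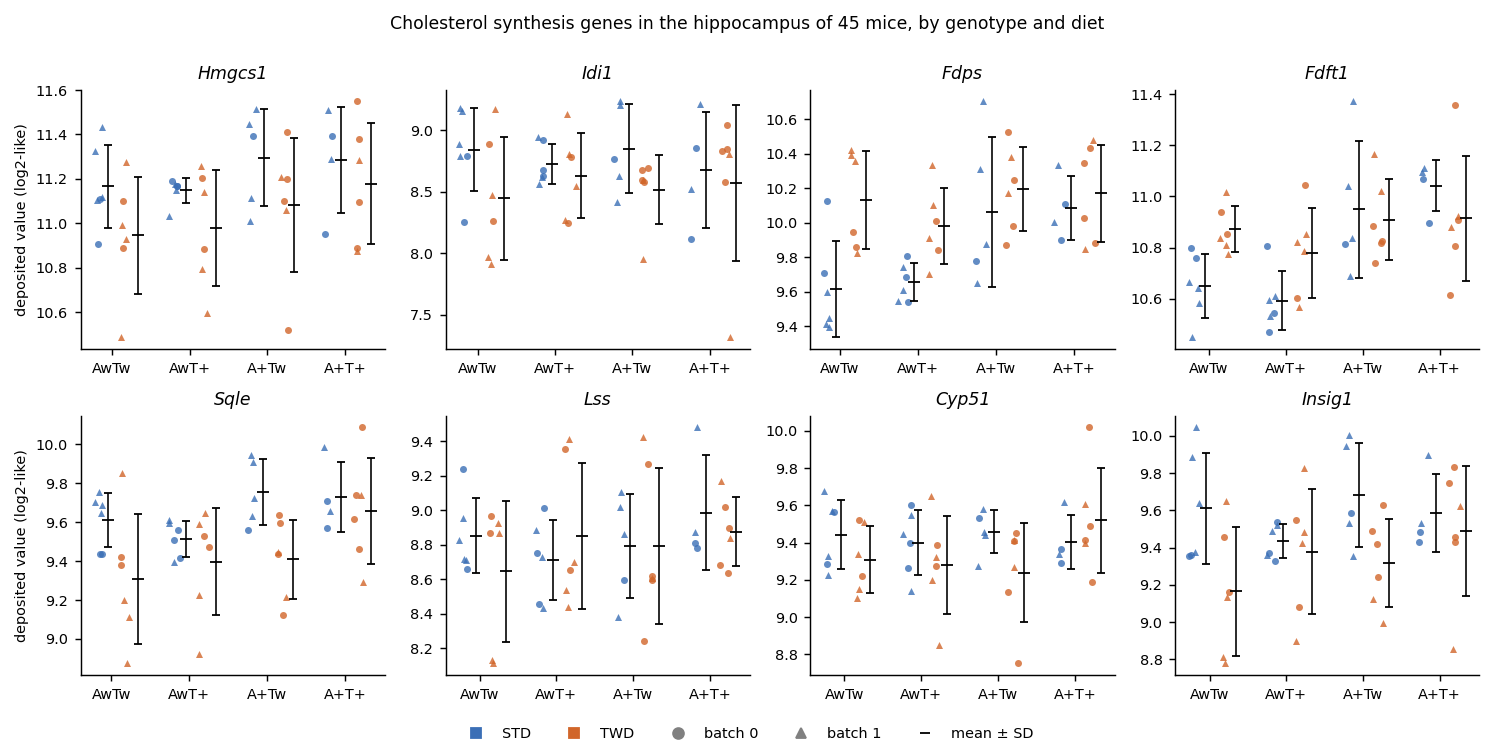
Deposited log2-like value (vertical axes, a separate scale for each gene) of each mouse by genotype (horizontal axes), STD in blue and TWD in orange, batch 0 as circles and batch 1 as triangles, with the mean and SD of each group as black bars. The lowest Insig1 and Sqle values of AwTw/TWD, 8.78 and 8.88, both belong to replicate 3, a batch 1 mouse. The diets overlap for every gene within every genotype.

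The batches were also fitted apart. In the 25 mice of batch 1 alone, 5 of the 8 genes passed, against 40.9% of all genes: Fdps rose by 0.40, while Idi1, Insig1, Sqle and Hmgcs1 fell by 0.48, 0.45, 0.35 and 0.24. In the 20 mice of batch 0 alone, none of the 8 and none of the 15897 genes passed (limma, with 882 genes at an unadjusted p under 0.05). There the log2 differences were 0.19 for Fdps, -0.09 for Hmgcs1, -0.01 for Insig1, -0.000477 for Sqle and 0.03 for Idi1. The difference between batches was tested with a diet by batch term. It was -0.45 ± 0.17 for Insig1 (adjusted p = 0.126), -0.34 ± 0.13 for Sqle (adjusted p = 0.127) and -0.53 ± 0.23 for Idi1 (adjusted p = 0.143). For Fdps it was 0.23 ± 0.17 (adjusted p = 0.334) and for Hmgcs1 -0.15 ± 0.14 (adjusted p = 0.477). The other 3 genes had adjusted p-values from 0.606 to 0.808, and 0 of 15897 genes passed, with 28% of all genes at an unadjusted p under 0.05.

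**Figure D2:**
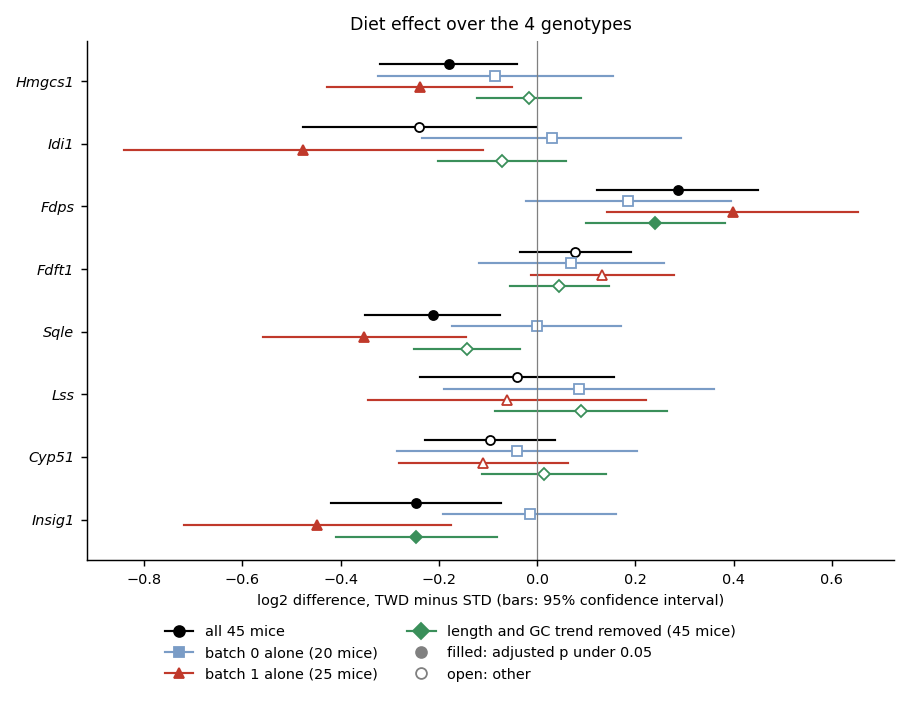
Log2 difference, TWD minus STD (horizontal axis), with its 95% confidence interval for each gene (vertical axis) over all mice, in each batch alone, and after a smooth trend over GC content and transcript length was removed. Filled symbols have an adjusted p under 0.05. Insig1 lies at -0.25 over all mice, -0.01 in batch 0, -0.45 in batch 1 and -0.25 after the trend was removed, and Fdps stays above 0 in each.

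Over the whole table, the diet difference followed the base composition of the transcripts. Over 15695 genes with a known transcript, Spearman's rho of the log2 difference was 0.62 with the GC content and -0.47 with the length of the longest annotated transcript, which describes genes that share the same libraries. The median log2 difference was -0.22, -0.10, 0.01, 0.08 and 0.14 in 5 bins of 3139 genes from the lowest to the highest GC content. Idi1 (41.9% GC, -0.24) and Hmgcs1 (43.1%, -0.18) lay in the lowest bin, near its median. Cyp51 (46.2%, -0.10) lay at the median of the next bin, and Fdft1 (51.8%, 0.08) at that of the fourth. Insig1 (48.2%, -0.25), Sqle (48.6%, -0.21), Lss (48.7%, -0.04) and Fdps (50.6%, 0.29) lay in the middle bin, whose median was 0.01. Insig1 and Sqle were below that median and Fdps above it. After a smooth trend over GC content and length was removed from each mouse, an alternative chosen after the data were seen, Fdps (0.24, adjusted p = 0.0253) and Insig1 (-0.25, adjusted p = 0.0399) passed, against 13.4% of all genes. Sqle was then at -0.14 (adjusted p = 0.0648), Idi1 at -0.07 (adjusted p = 0.468) and Hmgcs1 at -0.02 (adjusted p = 0.865).

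**Figure D3:**
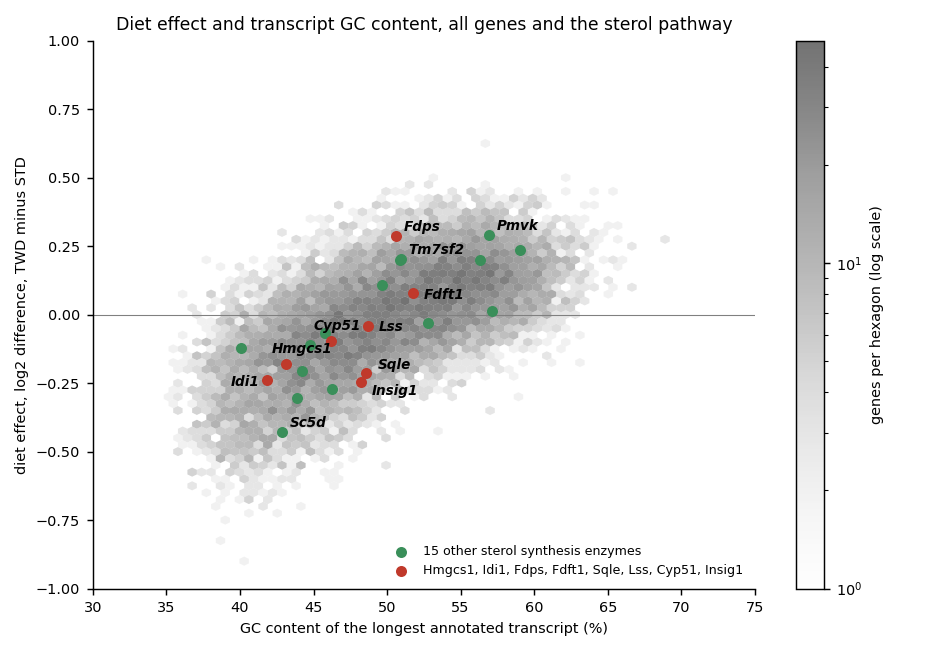
Log2 difference, TWD minus STD (vertical axis), against the GC content of the longest annotated transcript (horizontal axis). Grey hexagons count all genes on a log scale, red points are the 8 genes and green points the 15 other enzymes of sterol synthesis, of which Pmvk, Tm7sf2 and Sc5d are named. The pathway genes run upward with the cloud of all genes, and Insig1 and Sqle lie below and Fdps above the genes of like GC content.

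The main axis of variation among mice of the same group was taken from the first principal component of the residuals. The score of each mouse on that axis was computed from its full values, with group differences left in. This score moved with 6 of these genes. Over 45 mice its Pearson correlation was 0.86 with Idi1, 0.85 with Insig1, 0.68 with Sqle, 0.67 with Hmgcs1, -0.51 with Fdft1 and -0.84 with Fdps, beside 0.25 with Cyp51 and 0.11 with Lss, which describes values from the same libraries. The score had a mean of 0.45 ± 0.85 (SD) on STD and -0.39 ± 0.97 on TWD. In batch 0 the means were 0.11 and -0.07, and in batch 1 they were 0.66 and -0.72. With the score as a covariate, the differences of the 8 genes lay between -0.05 and 0.09, and 0 of 15897 genes passed (limma, with 1281 genes at an unadjusted p under 0.05). Since the score itself differed between the diets, diet and score cannot be told apart in this fit.

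Markers of cell types are given beside the 29.4% of all genes that passed for diet (16.0% higher and 13.4% lower). Of the microglia markers 8 of 13 passed (7 higher), of the oligodendrocyte markers 8 of 15 (5 higher), of the astrocyte markers 7 of 14 (3 higher), of the neuron markers 6 of 13 (3 higher), of the endothelial markers 2 of 10 (both higher) and of the choroid plexus markers 0 of 12, although all 12 had a difference below 0 (median -0.54). The summed log2 level of the microglia markers ran from 12.82 to 14.66 with a median of 13.24 on STD, and from 13.05 to 14.50 with a median of 13.81 on TWD. For the oligodendrocyte markers it ran from 16.20 to 16.73 on STD and from 16.09 to 17.01 on TWD, and for the astrocyte markers from 15.95 to 16.38 and from 15.78 to 16.46. With the oligodendrocyte score as a covariate, Fdps, Insig1 and Sqle passed and Hmgcs1 did not (adjusted p = 0.0679), against 24.8% of all genes. With the choroid plexus score, the same 4 genes passed as without it, against 33.1% of all genes. The part of the microglia and astrocyte markers in the result was not tested.

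The other enzymes of the pathway had calls in both directions. Of 15 further sterol synthesis enzymes, 6 passed, 4 of them higher and 2 lower, against 29.4% of all genes (16.0% higher and 13.4% lower), and the median log2 difference was -0.03. Higher were Pmvk (0.29 ± 0.07, adjusted p = 0.0157), the phosphomevalonate kinase, and Tm7sf2 (0.20 ± 0.06, adjusted p = 0.0176), a sterol reductase, with the other two at 0.20 and 0.24. Among the lower was Sc5d (-0.43 ± 0.12, adjusted p = 0.0168), a late desaturase. Over these 15 and the 8 genes together, 23 in all, Spearman's rho of the log2 difference was 0.79 with GC content and -0.63 with transcript length.

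Among 11 regulators of SREBP and uptake genes, 3 passed and all 3 were lower, against 29.4% of all genes called in either direction and 13.4% called lower. These were Stard4 (-0.33 ± 0.09, adjusted p = 0.0157), a sterol carrier, Rnf139 (-0.44 ± 0.15, adjusted p = 0.0244), a ubiquitin ligase of the sterol response, and Mbtps2 (-0.46 ± 0.17, adjusted p = 0.0381), the protease that releases SREBP. Srebf2, which encodes SREBP-2, was at 0.03 ± 0.08 (adjusted p = 0.775). Of 11 fatty acid synthesis targets of SREBP, 4 passed, again against 29.4% of all genes, with Fasn, the fatty acid synthase, higher (0.31 ± 0.08, adjusted p = 0.0157) and 3 lower, among them Scd2 (-0.23 ± 0.07, adjusted p = 0.0233) and Me1 (-0.20 ± 0.07, adjusted p = 0.0374).

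Genes of cholesterol export and removal were called about as often as the 29.4% of all genes. Of 9 LXR targets and efflux genes, 2 passed: Apoe, the main apolipoprotein of the brain, was higher (0.24 ± 0.09, adjusted p = 0.0391) and Mylip, a ubiquitin ligase, was lower (-0.18 ± 0.07, adjusted p = 0.0474). Pltp, a phospholipid transfer protein, was at 0.32 ± 0.15 (adjusted p = 0.106). Of 8 genes of cholesterol turnover, 3 passed: Soat1, which esterifies cholesterol, was lower (-0.38 ± 0.13, adjusted p = 0.0282), while Cyp46a1, the neuronal 24-hydroxylase (0.19 ± 0.07, adjusted p = 0.0397), and Ch25h, the 25-hydroxylase (0.18 ± 0.07, adjusted p = 0.0407), were higher.

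Within a genotype, 1 of the 32 gene by genotype tests passed. In AwTw mice, Fdps rose by 0.52 ± 0.15 (adjusted p = 0.0498), against 9.35% of all genes called in that comparison (6.01% higher and 3.34% lower). This call was lost in 32 of 45 fits that left out 1 mouse each, and under 8 alternatives that included quantile normalization, a fit of only the groups compared and removal of the trend over GC content and length. The lowest, median and highest Fdps values were 9.40, 9.52 and 10.13 in AwTw/STD and 9.83, 10.15 and 10.42 in AwTw/TWD. The groups overlapped through 1 STD mouse, replicate 2 of batch 0. In batch 1 alone the AwTw difference was 0.79 (adjusted p = 0.043), and in batch 0 alone, with 2 mice per diet, it was -0.02 (adjusted p = 1). Insig1 (-0.44 ± 0.16, adjusted p = 0.0558) and Sqle (-0.30 ± 0.13, adjusted p = 0.0836) did not pass. In each of the 3 transgenic genotypes 0 of 15897 genes passed by limma, with 1183 at an unadjusted p under 0.05 for AwT+, 705 for A+Tw and 409 for A+T+.

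In AwT+ mice the diet difference was -0.11 ± 0.13 for Sqle, -0.05 ± 0.16 for Insig1 and 0.32 ± 0.15 for Fdps. In A+Tw mice these were -0.35 ± 0.14, -0.38 ± 0.18 and 0.15 ± 0.17. The A+T+ mice had -0.07 ± 0.15, -0.10 ± 0.18 and 0.09 ± 0.17. For Fdft1, it was 0.22 ± 0.10 in AwTw and 0.18 ± 0.10 in AwT+ mice, beside -0.03 ± 0.11 with A+Tw and -0.12 ± 0.11 with A+T+. The test of the difference itself, an F test of diet by genotype, passed for 0 of the 8 and 0 of 15897 genes (limma, with 292 at an unadjusted p under 0.05). The adjusted p ran from 0.980 to 0.993 over the 8 genes, and Fdft1 had the smallest unadjusted p (0.0846). In no genotype did the values of any of the 8 genes separate the diets without overlap, as they did for 0.352% of all genes in AwTw mice, 0.937% with the tau transgene alone, 0.164% with APP/PS1 alone and 0.528% with both.

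The APP/PS1 transgenes were compared with their absence, as the mean of the A+ groups minus that of the Aw groups over tau genotype and diet. Of the 8 genes, 2 passed, Fdft1 and Fdps, both higher, against 3.77% of all genes (3.11% higher and 0.661% lower). The log2 difference was above 0 for 7 of the 8, beside 44.5% of all genes. Its median was 0.14, beside -0.02 over all genes. Fdft1 ran from 10.62 to 11.37 with a median of 10.89 in the 21 A+ mice and from 10.45 to 11.05 with a median of 10.77 in the 24 Aw mice, and it rose by 0.23 ± 0.05 (adjusted p = 0.00461). Fdps ran from 9.65 to 10.70 with a median of 10.11 and from 9.40 to 10.42 with a median of 9.82, and it rose by 0.29 ± 0.08 (adjusted p = 0.0287). The ranges overlapped for both genes.

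The highest value of each gene was that of A+Tw/STD replicate 2. In A+Tw/STD the 5 Fdft1 values were 10.84, 11.37, 10.69, 10.81 and 11.04, and in A+T+/STD the 4 values were 11.10, 10.89, 11.07 and 11.11. The highest of the 6 AwTw/STD mice was at 10.80. The difference of A+T+/STD from AwTw/STD was 0.40 ± 0.11 (adjusted p = 0.0769), which did not pass. Of the 48 tests of a transgenic group against AwTw within a diet, none passed. On STD, 0.925% of all genes passed in A+Tw (0.918% higher, 0.00629% lower), 1.32% in A+T+ (1.22% higher, 0.101% lower) and none in AwT+. On TWD, 0.824% passed in A+Tw (0.818% higher, 0.00629% lower), 0.730% in A+T+ (0.692% higher, 0.0377% lower) and none in AwT+. On TWD, Fdft1 in A+T+ mice was 0.05 ± 0.10 above AwTw mice. Fdps lay above AwTw/STD by 0.48 ± 0.17 for A+T+/STD mice and 0.44 ± 0.16 for A+Tw/STD mice. Its gaps from AwTw/TWD were smaller, 0.05 ± 0.16 for A+T+/TWD and 0.08 ± 0.16 for A+Tw/TWD. The F test of diet by genotype did not pass for Fdps (adjusted p = 0.980).

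Sqle (0.18 ± 0.07, adjusted p = 0.177), Hmgcs1 (0.15 ± 0.07, adjusted p = 0.308), Insig1 (0.12 ± 0.09, adjusted p = 0.498), Lss (0.10 ± 0.10, adjusted p = 0.632), Cyp51 (0.05 ± 0.07, adjusted p = 0.744) and Idi1 (-0.01 ± 0.12, adjusted p = 0.965) did not pass. With the first principal component score as a covariate, Sqle (0.25, adjusted p = 1.1e-04), Insig1 (0.23, adjusted p = 4.83e-05) and Hmgcs1 (0.22, adjusted p = 0.00255) passed as well as Fdft1 and Fdps, against 6.47% of all genes. The score had a mean of -0.21 ± 0.93 (SD) in A+ and 0.19 ± 1.04 in Aw mice. Since it differed between them, APP/PS1 and score cannot be fully told apart in this fit. With the trend over length and GC content removed, Fdft1, Fdps, Hmgcs1 (0.21) and Sqle (0.20) passed, against 5.99% of all genes. In batch 1 alone Fdft1 passed (0.33, adjusted p = 0.00998) and Fdps did not (0.35, adjusted p = 0.195). In batch 0 alone neither passed, with 0.11 for Fdft1 and 0.17 for Fdps.

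**Figure D4:**
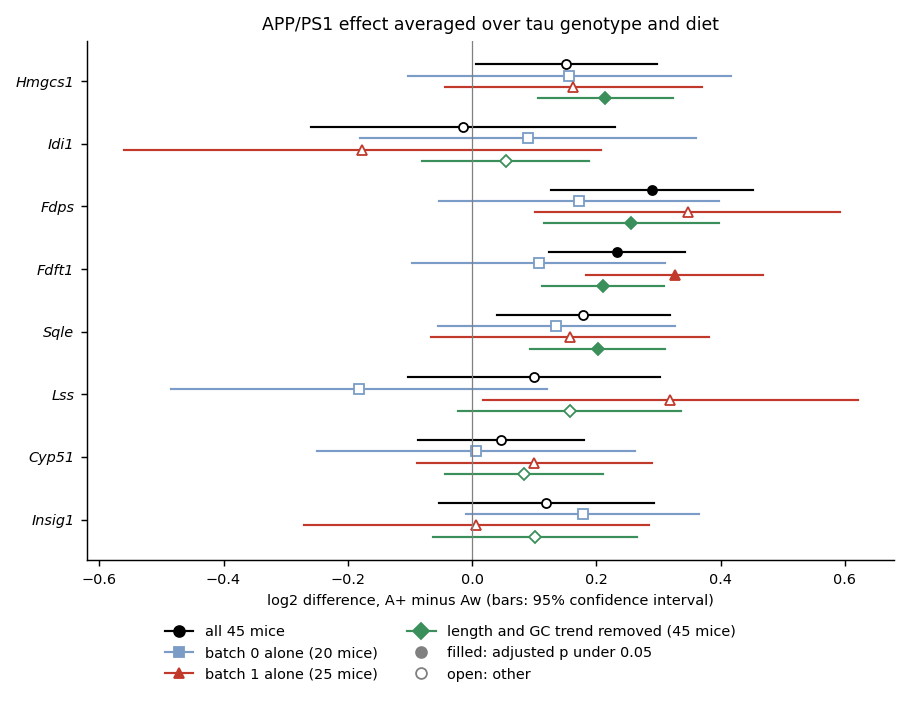
Log2 difference, A+ minus Aw (horizontal axis), with its 95% confidence interval for each gene (vertical axis), over all mice, in each batch alone, and after a smooth trend over GC content and transcript length was removed. Filled symbols have an adjusted p under 0.05. Fdft1 lies at 0.23 and Fdps at 0.29 over all mice, and both lie above 0 in each batch.

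The 3' end of Fdft1 overlaps that of Ctsb, the gene of the lysosomal protease cathepsin B, by 774 exonic bases on the other strand. The library kit marks strand, but whether the quantification used it is not given in the sources used here. Ctsb had a mean value of 13.40 beside 10.83 for Fdft1, and it was higher with APP/PS1 by 0.31 ± 0.06 (adjusted p = 9.47e-04). Over 45 mice the Pearson correlation of the 2 genes was 0.71, and 0.49 after group and batch means were subtracted. With the Ctsb value as a covariate, an alternative chosen after the data were seen, the APP/PS1 difference of Fdft1 was 0.11 ± 0.06 (adjusted p = 0.225) and no longer passed. Reads of Ctsb within the Fdft1 value and a change of Fdft1 itself cannot be told apart here. Fdps shares 197 bases of exon with Gm43738, a predicted gene on the same strand, and Cyp51 shares 166 with Akap9 on the other strand. Also on the other strand, Hmgcs1 shares 458 bases with Gm48342, Idi1 323 with Gm48574 and Lss 150 with 4930483K19Rik.

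Of the microglia markers, 13 of 13 had a difference above 0 with APP/PS1 and 11 of 13 passed, against 3.11% of all genes called higher, and their summed log2 level ran from 12.82 to 13.75 in Aw and from 13.72 to 14.66 in A+ mice. Of the choroid plexus markers 0 of 12 passed, but all 12 had a difference above 0 (median 0.89), with sums from 9.75 to 18.11 in Aw and from 10.62 to 17.62 in A+ mice. With the choroid plexus score as a covariate Fdft1 passed and Fdps did not (0.28, adjusted p = 0.0778), and with the oligodendrocyte score likewise (0.27, adjusted p = 0.0933). Of all genes 2.64% and 2.87% passed in these fits, against 3.77% without a score. Over 45 mice, the mean standardised value of the microglia markers had a Pearson correlation of 0.67 with Fdft1 and 0.61 with Fdps. With the other genes it lay between -0.23 (Idi1) and 0.17 (Sqle). The part of the microglia markers in the APP/PS1 calls was not tested. Of the 15 other sterol synthesis enzymes, 1 passed, as higher, against 3.11% of all genes called higher. A difference above 0 was found for 11 of the 15, against 44.5% of all genes.

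The tau transgene gave no call among the 8 genes, for which the log2 differences lay between -0.02 and 0.09. Of all genes 0.0189% passed (3 genes by limma, with 819 at an unadjusted p under 0.05).

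The order of the 8 group means was the same for Hmgcs1 and Sqle, from AwTw/TWD at 10.95 and 9.31 to A+Tw/STD at 11.30 and 9.75. Insig1 also ran from AwTw/TWD (9.17) to A+Tw/STD (9.68), and so did Idi1 (8.45 to 8.85). Fdps ran from AwTw/STD (9.61) to A+Tw/TWD (10.20), and Fdft1 from AwT+/STD (10.59) to A+T+/STD (11.04). Lss ran from AwTw/TWD (8.64) to A+T+/STD (8.99) and Cyp51 from A+Tw/TWD (9.24) to A+T+/TWD (9.52). Neighbours in each order differed by at most 0.15 for 7 of the genes, against SDs within groups from 0.06 to 0.63. For Fdps the largest step between neighbours was 0.33, from AwT+/STD to AwT+/TWD.

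Among themselves, and over both batches together, 4 genes formed a block that varied together. Fdft1 and Fdps correlated with each other, and Cyp51 and Lss belonged clearly to neither group. Over 45 mice, Pearson's r was 0.86 for Idi1 with Insig1, 0.84 for Hmgcs1 with Sqle, 0.83 for Sqle with Insig1 and 0.75 for Hmgcs1 with Insig1. Fdft1 and Fdps correlated at 0.72. Fdps had -0.57 with Insig1, -0.54 with Idi1, -0.46 with Hmgcs1 and -0.38 with Sqle. These values differed between batches: in the same order they were -0.05, 0.07, -0.33 and 0.11 in batch 0 and -0.70, -0.70, -0.53 and -0.54 in batch 1. Cyp51 had 0.59 with Sqle and 0.52 with Hmgcs1 but 0.19 with Idi1, and Lss had 0.40 with Hmgcs1 but -0.04 with Idi1. After group and batch means were subtracted, the same pairs had 0.88, 0.81, 0.78, 0.71 and 0.58, and Fdps had -0.70 with Insig1. Of 28 pairs, 19 were positive in the values and 18 after subtraction, with medians of 0.21 in both. The grouping of the values was less clear in batch 0. There r was 0.80 for Sqle with Cyp51, 0.31 for Sqle with Idi1 and 0.46 for Hmgcs1 with Idi1. In batch 1 these pairs had 0.52, 0.76 and 0.69. Fdft1 in batch 0 had 0.62 with Sqle and 0.55 with Fdps. These values share their libraries, and the correlations of single genes with the first principal component score are given above.

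**Figure D5:**
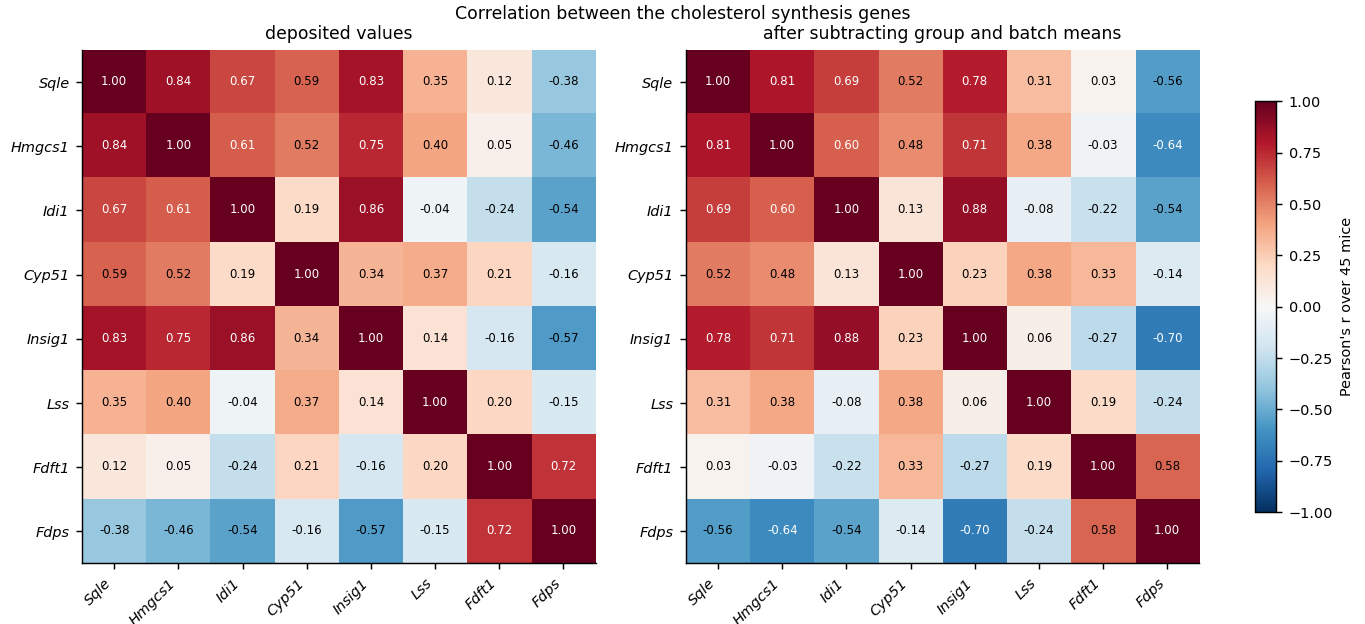
Pearson's r over 45 mice for each pair of genes (both axes), of the deposited values on the left and after group and batch means were subtracted on the right, in red above and in blue below 0. Sqle, Hmgcs1, Idi1 and Insig1 correlate at 0.60 to 0.88, and Fdps correlates below 0 with each gene but Fdft1.

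The genes outside the set that most resembled the mean of the 8 standardised profiles, over 45 mice, were Osmr (r = 0.80), the oncostatin M receptor, Aqp4 (0.78), the water channel of astrocytes, Cd44 (0.76), a hyaluronan receptor, Msmo1 (0.75), a sterol methyl oxidase, and Gldn (0.73), gliomedin. By Spearman's rho they took places 3, 4, 13, 5 and 12, and after group and batch means were subtracted places 88, 34, 126, 330 and 375. Of the 8 genes themselves, Sqle lay closest to that mean (0.89), followed by Hmgcs1 (0.83), and Fdps was the only one with a value below 0 (-0.12). Among the other enzymes, Pmvk and Tm7sf2 had -0.40 and -0.44.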

How the data were processed

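Hippocampal mRNA of 45 mice was sequenced, with genotype, diet and batch taken from the labels. Per the labels and the methods of the study, the authors trimmed reads with Trimmomatic 0.38, filtered them with Bowtie2 2.2.3, quantified transcripts with kallisto 0.44.0 and summed them per gene (mm10). The deposited log2-like values are variance-stabilized by DESeq2 1.22.2, with batch removed by the authors with limma 3.38.3 and with genes of low mean count left out. Removal made the batch means of each of the 15897 genes equal without protecting the groups, so differences between groups of unequal batch make-up can be understated or shifted. The depth of each mouse is not in the table. Symbols, lengths and GC content come from GENCODE M21.

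Tests used limma 3.58.1 under R 4.3.3 (mean trend, batch as covariate, two-sided, Benjamini-Hochberg over all genes, threshold 0.05). The diet effect came from an additive fit with genotype, and the other contrasts from a fit of 8 group means. The method was checked on simulated data. Figures and correlations used Python 3.11.15 and scipy 1.17.1. Named genes were the 8, at most 3 per pathway list by p in the diet effect, Srebf2 and the 5 most alike genes. Some genes that the rule named are not reported here. The genes, lists and motifs were chosen with earlier results of these data known.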

Additional observations from a re-analysis of the deposited data

Results flagged for a closer look

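In 64 sets of values, 1 for each of the 8 genes in each of the 8 groups, a mouse was sought that stood far from the others of its group by the share of the group's range that its gap took. There were 4 such mice, where chance gives about 1 in 20 sets. Idi1 was at 7.31 in A+T+/TWD replicate 1, while the other mice of that group lay between 8.58 and 9.04. Idi1 was at 7.95 in A+Tw/TWD replicate 2, with the others between 8.58 and 8.69. Hmgcs1 was at 11.03 in AwT+/STD replicate 4, with the others between 11.15 and 11.19. Lss was at 9.48 in A+T+/STD replicate 1, with the other 3 between 8.78 and 8.87. All 4 mice were in batch 1.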

How the results depend on the processing

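No paired analysis was possible because the labels carry no replicate numbers shared between groups. For the diet effect over all genotypes, 4 of the 8 genes passed. The count was 0 in batch 0 alone and with the principal component score as a covariate, and 2 with the length and GC trend removed. It was 3 with the label prefix or the oligodendrocyte score, each without Hmgcs1, and 5 in batch 1. Reversed without a call were Idi1 in batch 0 (0.0303) and with the principal component score (0.0709), Lss in batch 0 (0.0847) and with the length and GC trend removed (0.0893), and Cyp51 with that trend removed (0.0139). The AwTw difference of Fdps was -0.0151 in batch 0. Without single mice the count ran from 2 to 4. Fdps and Sqle passed in 45 of 45 such fits. Insig1 was lost (adjusted p up to 0.0598) without A+T+/TWD replicate 1, A+Tw/STD replicates 1 or 3, A+Tw/TWD replicate 2, AwT+/TWD replicate 3, AwTw/STD replicate 4 or AwTw/TWD replicates 1 or 3. Hmgcs1 passed in 18 of 45 (up to 0.0887), namely without A+T+/STD replicates 1 or 2, A+T+/TWD replicates 4 to 6, A+Tw/STD replicates 2 or 5, A+Tw/TWD replicates 1, 5 or 6, AwT+/STD replicate 4, AwT+/TWD replicates 1, 4 or 5, AwTw/STD replicates 2 or 6, or AwTw/TWD replicates 4 or 5. Of all genes 29.4% passed (4678), against 27% with the label prefix, 24.8% with the oligodendrocyte score and 40.9% in batch 1. With the length and GC trend removed 2124 passed, and without single mice 2768 to 5917 did.

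For the diet effect within a genotype, 1 of 32 tests passed. The count was 0 in batch 0 and with the label prefix, the principal component score, the oligodendrocyte score, quantile normalization, no mean trend, only the groups compared or the length and GC trend removed, and 2 in batch 1 and with genes of a mean above the 25th percentile, where Insig1 joined Fdps. With that filter 2853 of the 11922 genes it left passed in AwTw, and the APP/PS1 count under it below is also of 11922 genes. Of all 15897 genes 1487 passed in AwTw, against 3982 in batch 1, 2661 with the choroid plexus score and 2490 without the batch covariate. With only the groups compared 1 passed, and under the others 0. Without single mice it ran from 0 to 3, and Fdps in AwTw (0.46 to 0.64, adjusted p 0.0102 to 0.183) passed in 13 of 45 fits: without A+T+/TWD replicates 1 or 4, A+Tw/STD replicates 1, 2, 3 or 5, A+Tw/TWD replicate 2, AwT+/TWD replicates 3 or 4, AwTw/STD replicates 2 or 6, or AwTw/TWD replicates 4 or 5.

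For the APP/PS1 effect, 2 genes passed. The count was 0 in batch 0, 1 in batch 1 and with the choroid plexus or oligodendrocyte score, 5 with the principal component score and 4 with the length and GC trend removed. Without single mice it ran from 1 to 2. Fdft1 passed in 45 of 45, and Fdps was lost without A+T+/STD replicate 1, A+T+/TWD replicate 1, A+Tw/STD replicates 2 or 5 or AwTw/TWD replicate 4 (adjusted p up to 0.069). Of all genes 599 passed, against 184 in batch 0, 288 in batch 1, 346 with genes of a mean above the 25th percentile, 1028 with the principal component score and 953 with the length and GC trend removed.

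Among the genotype effects within a diet, 0 of 48 tests passed, but 1 did (Fdft1) with quantile normalization, and the range without single mice was 0 to 1, the call arising without A+Tw/STD replicate 2, AwTw/STD replicate 2 or A+T+/TWD replicate 6. The interaction and tau effects gave 0 genes of the 8 under every alternative run. In batch 0 the lone A+Tw/STD mouse was assumed to vary like the others. Which causes lie behind these changes was not tested.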
